A study of Arabidopsis thaliana with 6 samples.

Results

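The 6 genes described here encode basic helix-loop-helix (bHLH) transcription factors of the carpel margin and the transmitting tract, namely *HECATE1* (*HEC1*, AT5G67060), *HEC2* (AT3G50330), *HEC3* (AT5G09750), *SPATULA* (*SPT*, AT4G36930), *INDEHISCENT* (*IND*, AT4G00120) and *ALCATRAZ* (*ALC*, AT5G67110). They were taken by gene identifier, and all 6 are among the 21799 genes with values in this *Arabidopsis thaliana* RNA sequencing study. The study compared inflorescences of Col-0 wild-type plants with those of plants mutant for 4 genes together, *bee1 bee3 stk ces-4*, in 3 biological replicates per genotype, each of which is a pool of plants. The mutant lacks normal function of the MADS-box gene *SEEDSTICK* (*STK*) and of the related bHLH genes *CESTA* (*CES*), *BEE1* and *BEE3*, and it was obtained by crossing mutant lines in the Col-0 ecotype, with *ces-4* from a SAIL insertion line. Plants were grown at the same temperature under long days, and inflorescences were taken up to stage 12, before fertilization. The question was which transcripts depend on these 4 regulators while the transmitting tract forms.

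A bHLH protein binds DNA as a dimer, through a basic region that reads a short palindrome called the E-box, and the helix-loop-helix that follows holds both partners together. The HEC proteins are needed redundantly for the transmitting tract, the style and the stigma and form dimers with SPT, which promotes growth of the carpel margins. ALC is the closest relative of SPT and acts with it in the gynoecium and in the layer where the fruit opens, and IND specifies the valve margin there and regulates auxin transport together with SPT.

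The proteins fell into 2 groups by sequence. Over a stretch of 54 residues that covers the bHLH, translated from the RefSeq annotation of the TAIR10.1 assembly, HEC1 and HEC2 were identical at 54 residues, and both shared 47 (87%) with HEC3. IND shared between 40 and 42 residues with the HEC proteins. SPT and ALC shared 48 (88.9%), while any pair across the groups shared 23 to 26 (42.6% to 48.1%). The coding sequences of 13 codons of the basic region are shown for 5 of the genes because the DNA contacts of these proteins lie there, with the 5th codon in capitals, on the coding strand.
HEC1: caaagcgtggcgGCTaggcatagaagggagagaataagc
HEC2: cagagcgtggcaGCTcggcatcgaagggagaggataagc
HEC3: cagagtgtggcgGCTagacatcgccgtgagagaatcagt
IND: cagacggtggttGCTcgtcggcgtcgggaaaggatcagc
ALC: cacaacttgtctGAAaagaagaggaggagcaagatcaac
These codons lie in the single coding exon of *HEC1* (chr5:26766672-26766710, plus strand), *HEC2* (chr3:18657693-18657731, minus strand), *HEC3* (chr5:3026650-3026688, minus strand) and *IND* (chr4:42793-42831, minus strand). In *ALC* (chr5:26785807-26785935, minus strand) an intron of 90 bases follows codon 6 and is left out above. Counted from 1 at the first codon shown and with ALC first, the capital codon carries the substitution E5A in the 3 HEC proteins and in IND. In typical bHLH proteins the glutamate at this place contacts the E-box. The HEC proteins and IND each differed from ALC at 10 of the 13 residues.

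The bHLH stretch most like those of HEC1, HEC2, HEC3 and IND, outside the 6 proteins, was that of AT3G21330, with 41, 41, 40 and 38 identical residues. For SPT and ALC it was that of PHYTOCHROME INTERACTING FACTOR3 (PIF3), a bHLH protein of light signalling, with 44 and 41. Over the whole exons the longest run of bases shared by *HEC1* and *HEC2* was 28, and it was 19 for *HEC3* with *IND*, 17 for *SPT* with *ALC* and between 11 and 14 for the remaining pairs. No pair shares a longer exact run.

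Upstream sequences were searched for the G-box CACGTG, a form of the E-box that many plant bHLH proteins bind, and for the E-box CANNTG. The CArG box, which MADS-domain proteins bind, was searched only as CCWWWWWWGG, with W for A or T. Each pattern reads the same on both strands, so only the strand of the gene was searched, and every G-box is also an E-box. In the 500 bases before the annotated start, a G-box was present in *HEC1*, *HEC2* and *SPT*, that is in 3 of the 6 genes, against 10.3% of 21100 promoters of tested genes. The G-boxes are shown in capitals with 20 bases on either side, on the strand of the gene, since they are the only exact CACGTG matches of the 6 promoters.
HEC1: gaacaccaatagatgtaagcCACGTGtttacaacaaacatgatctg
HEC2: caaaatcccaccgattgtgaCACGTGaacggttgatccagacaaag
SPT: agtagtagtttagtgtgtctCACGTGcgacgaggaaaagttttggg
They lie at chr5:26765479-26765524 (plus strand), chr3:18658844-18658889 (minus strand) and chr4:17413876-17413921 (plus strand), and the G-box begins 493, 492 and 187 bases before the start of *HEC1*, *HEC2* and *SPT*. An E-box was found in 5 of the 6 promoters, all but that of *ALC*, against 80.6% of promoters. A CArG box of this strict form was found in 0 of 6, against 4.44% of promoters, and for 6 genes this count is near that share. A match describes the letters only, and its absence says nothing about the factor.

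Sequencing depth ranged from 15.9 to 21.2 M reads on the listed genes, as derived from the spacing of low values, and expression is given in CPM, the counts scaled to a common library size. Replicates of a genotype correlated with r between 0.981 and 0.992 over genes, and wild-type replicate 2 lay farthest out on the first principal component. All 4 mutated genes were lower in the mutant, by a log2 fold change of -2.28 for *STK*, -4.03 for *CES*, -1.81 for *BEE1* and -2.90 for *BEE3*. Their adjusted p-values (limma) ranged from 4.0e-07 to 5.6e-04, and *STK* still gave 10.2 CPM in the mutant against 51.4 in wild type. The flower genes *LFY*, *AP1*, *AP3*, *PI*, *AG* and *SEP3* were all present, with a summed level of 667 to 758 CPM for wild type and 747 to 809 in the mutant. The ovule and pistil markers *INO*, *BEL1*, *CRC*, *SHP1* and *SHP2* summed to 134 to 141 and 126 to 141 CPM.

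None of the 6 bHLH genes passed the test between the genotypes. *HEC3*, *SPT* and *ALC* had higher values in all 3 mutant samples than in any wild-type sample, with means at 117% to 155% of wild type, whereas *HEC1*, *HEC2* and *IND* overlapped. In limma, 0 of 6 genes were called at an adjusted p under 0.05, against 0.695% of the 21287 genes tested (148 genes, 28 higher and 120 lower in the mutant). Without adjustment, 3 of the 6 had a p under 0.05, against 9.31% of all genes in either direction. All 3 were higher in the mutant, as were 3.83% of all genes at this p, while 5.48% were lower. In the same 3 the samples of the genotypes did not overlap, against 14.3% of all genes in either direction and 6.92% with all mutant samples above wild type. The median log2 fold change was 0.23 over the 6 genes and 0.01 over all genes tested. No other tool was run, because the values are not counts. In whole inflorescences, a change in the number of cells that express a gene and a change in its RNA per cell cannot be told apart.

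**Figure D1:**
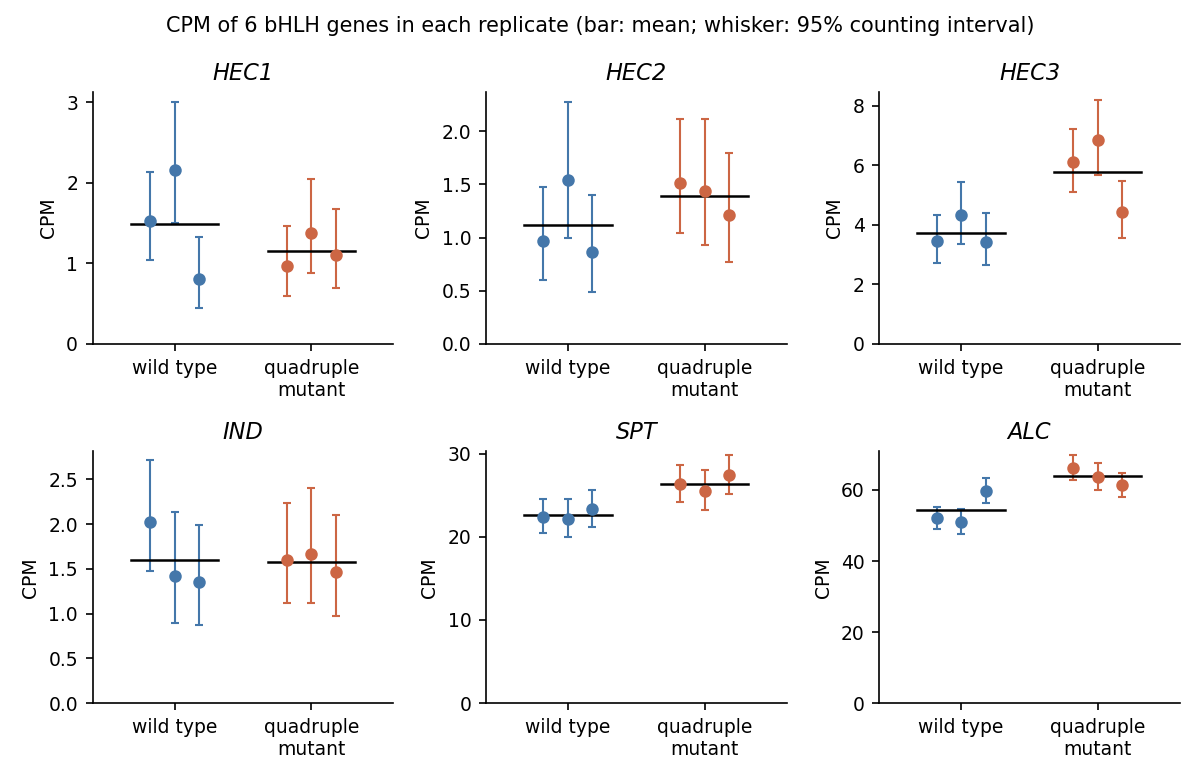
Expression of the 6 bHLH genes in CPM (linear axes from 0) in each replicate of wild type (blue) and *bee1 bee3 stk ces-4* (orange). Points are samples, bars are means and whiskers are 95% Poisson intervals of the reads, which cover counting error only; the samples are separated for *HEC3* (3.44 to 4.32 against 4.43 to 6.85), *SPT* (22.2 to 23.3 against 25.5 to 27.4) and *ALC* (51.1 to 59.8 against 61.3 to 66.3).

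The 3 *HECATE* genes act redundantly in the style and the transmitting tract, and *HEC3* had the highest level of them. None of the 3 was called, and only *HEC3* had separated samples. *HEC3* gave 3.45, 4.32 and 3.44 CPM in wild-type replicates 1 to 3, and 6.10, 6.85 and 4.43 CPM in the mutant. The genotypes did not overlap, but mutant replicate 3 (4.43 CPM) was only slightly above wild-type replicate 2 (4.32 CPM). These values rested on 88 and 70 reads, in libraries of 19.2 and 15.9 M reads on the listed genes. The means were 3.74 ± 0.502 and 5.79 ± 1.24 CPM (SD, n = 3 each), so that the mutant had 155% of the wild-type level. The log2 fold change of *HEC3* was 0.56 (SE 0.18, 95% interval 0.15 to 0.97), with an unadjusted p of 0.013 and an adjusted p of 0.326 in limma. This was the largest difference among the 6 genes, and it did not pass the threshold.

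*HEC1* gave 1.52, 2.16 and 0.807 CPM for wild type and 0.962, 1.38 and 1.11 CPM in the mutant. Wild-type replicates were the highest and the lowest of all 6 samples, and the mutant samples lay between them. These levels rested on 15 to 35 reads per sample. The counting intervals of wild-type replicate 2 (1.5 to 3 CPM) and wild-type replicate 3 (0.452 to 1.33 CPM) did not overlap, so the spread within wild type was wider than counting error. The log2 fold change of *HEC1* was -0.22 (SE 0.27, 95% interval -0.83 to 0.38, limma adjusted p = 0.875), and it was 0.02 without wild-type replicate 2.

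*HEC2* gave 0.966, 1.54 and 0.861 CPM for wild type and 1.51, 1.44 and 1.21 CPM in the mutant. The highest sample was wild-type replicate 2, and the other wild-type samples were below the 3 mutant samples. From 16 to 33 reads per sample, the log2 fold change of *HEC2* was 0.24 (SE 0.21, 95% interval -0.24 to 0.72, limma adjusted p = 0.818). As a ratio of mutant to wild type in CPM + 0.5, the interval spans 0.844 to 1.64 for *HEC2* and 0.564 to 1.30 for *HEC1*. The added 0.5 CPM narrows it, and with 0.1 CPM added the log2 intervals were -0.32 to 0.96 and -1.06 to 0.53. Neither a lower nor a higher level is shown at this depth.

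*HEC3* was the main *HECATE* transcript in each of the samples. It made up 58.1%, 53.8% and 67.4% of the CPM of the 3 genes in wild type and 71.1%, 70.8% and 65.7% in the mutant, and the genotypes overlapped. The share of *HEC1* was 25.6%, 26.9% and 15.8% in wild type and 11.2%, 14.3% and 16.4% in the mutant, again with overlap. *HEC2* held between 14.9% and 19.2% in all samples. The summed level of the 3 genes was 6.35 ± 1.5 CPM for wild type and 8.33 ± 1.47 CPM in the mutant (SD, n = 3 each), with overlapping samples. The fold changes of the 3 genes were not tested against each other.

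*IND*, which specifies the valve margin and is by sequence the relative of the *HECATE* genes, did not differ detectably. It gave 2.02, 1.42 and 1.35 CPM for wild type and 1.6, 1.67 and 1.46 CPM in the mutant, so that all mutant samples lay within the wild-type range. The means were 1.6 ± 0.372 and 1.58 ± 0.106 CPM (SD, n = 3 each). The log2 fold change of *IND* was 0.00 (SE 0.19, limma adjusted p = 1.000), and the 95% interval of the ratio of CPM + 0.5 reached from 0.743 to 1.35. With 0.1 CPM added in place of 0.5, the log2 interval was wider, -0.54 to 0.55. With 23 to 44 reads per sample, a difference inside these intervals was not detectable.

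*SPT*, the dimer partner of the HEC proteins and of IND, gave 22.4, 22.2 and 23.3 CPM for wild type and 26.4, 25.5 and 27.4 CPM in the mutant. All mutant samples were above all wild-type samples, and the spread within each genotype was small. The SD was 2.61% of the mean in wild type and 3.51% in the mutant, below the counting error of 4.64% averaged over samples. Counting intervals overlapped between the genotypes, as for wild-type replicate 3 (21.2 to 25.6 CPM) and mutant replicate 2 (23.2 to 28 CPM). The means were 22.6 ± 0.590 and 26.4 ± 0.929 CPM (SD, n = 3 each), which put the mutant at 117% of wild type. The log2 fold change of *SPT* was 0.22 (SE 0.09, 95% interval 0.02 to 0.41), with an unadjusted p of 0.031 and an adjusted p of 0.462 in limma.

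*ALC*, which is needed for the separation layer of the fruit, was the most abundant of the 6 transcripts. It gave 52.1, 51.1 and 59.8 CPM for wild type and 66.3, 63.7 and 61.3 CPM in the mutant. Wild-type replicate 3 was close to mutant replicate 3, and the genotypes did not overlap. The means were 54.3 ± 4.75 and 63.8 ± 2.50 CPM (SD, n = 3 each), again 117% of wild type for the mutant. The log2 fold change of *ALC* was 0.23 (SE 0.09, 95% interval 0.03 to 0.43), with an unadjusted p of 0.027 and an adjusted p of 0.438 in limma. The ratio of *ALC* to *SPT* in CPM was 2.40 ± 0.146 in wild type and 2.42 ± 0.154 in the mutant (SD, n = 3 each), with overlapping samples. The differences of *SPT* and *ALC* were thus of like size, and both missed the threshold. Without wild-type replicate 2, the log2 fold change was 0.65 for *HEC3*, 0.21 for *SPT* and 0.19 for *ALC*, and the unadjusted p of *SPT* and *ALC* rose to 0.066 and 0.079 in limma.

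Flower markers also had a positive median log2 fold change, of 0.09 over 6 genes. Among them *AP1*, which specifies sepals and petals, was higher in the 3 mutant samples (96.0 against 111 CPM on average, log2 fold change 0.21, unadjusted p 0.037, limma adjusted p = 0.487). *SEP3*, a cofactor of the floral organ genes, was also higher in the 3 mutant samples (180 against 197 CPM, log2 fold change 0.13, unadjusted p 0.136). *LFY*, *AP3* and *PI* overlapped between the genotypes, with log2 fold changes of 0.07, 0.09 and 0.09, as did *AG* with -0.07. The median of the 5 ovule and pistil markers was -0.04. Among these *INO*, a gene of the outer integument of the ovule, was lower in the 3 mutant samples (10.3 against 8.28 CPM, log2 fold change -0.29, unadjusted p 0.051, limma adjusted p = 0.539). *BEL1* and *SHP1* had log2 fold changes of 0.09 each, *CRC* of -0.04 and *SHP2* of -0.13, all with overlapping samples. The anther and pollen markers *AMS*, *MS1* and *VGD1* overlapped as well, with -0.01, -0.17 and -0.03. *DYT1*, also on this marker list, is not among the genes with values. The part of tissue composition in the values of *HEC3*, *SPT* and *ALC* was not tested.

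**Figure D2:**
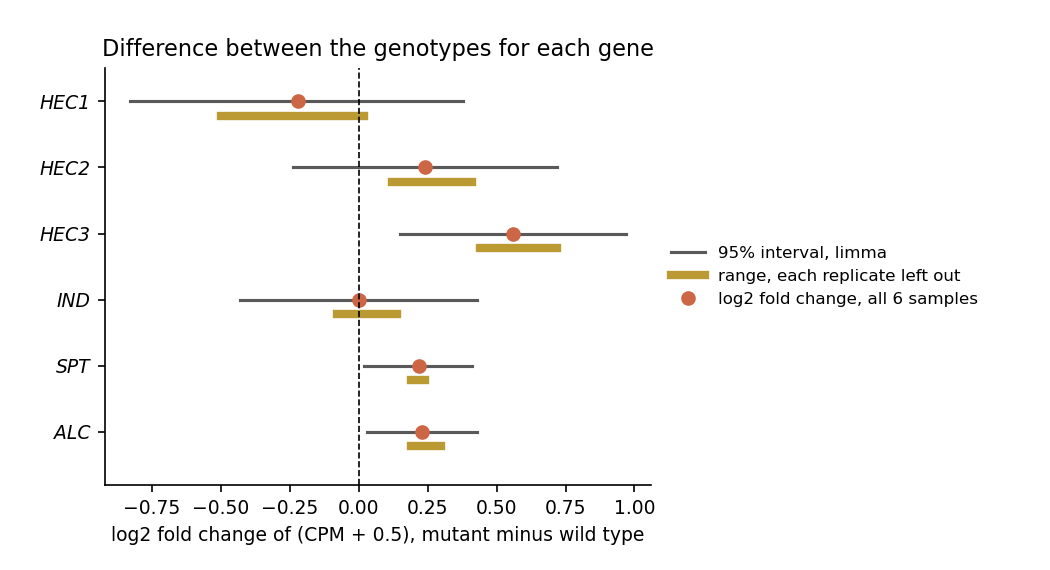
Log2 fold change of each bHLH gene on the log2(CPM + 0.5) scale, mutant minus wild type, with the 95% limma interval (thin line) and the range obtained when each replicate was left out in turn (thick bar); the dashed line marks no difference. The intervals of *HEC3*, *SPT* and *ALC* lie above 0 before adjustment, while the bar of *HEC1* reaches from -0.50 to 0.02.

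The value of *ALC* has a further limit, since the gene overlaps *INCURVATA2* (*ICU2*, AT5G67100), which encodes the catalytic subunit of DNA polymerase alpha on the opposite strand. *ALC* lies at chr5:26785106-26786431 on the minus strand of TAIR10.1, with 3 annotated transcripts and 5 coding exons, and *ICU2* at chr5:26776953-26786431 on the plus strand. Of the 1030 exon bases of *ALC*, 870 (84.5%) lie under exons of 1 of the 2 annotated *ICU2* transcripts, and 0 lie under exons of the other. *ICU2* has 5783 exon bases in all. Whether the gene models used for the deposited values hold the same *ICU2* transcripts was not checked. *ICU2* gave 33.0, 41.5 and 30.1 CPM for wild type and 28.7, 31.2 and 32.7 CPM in the mutant, with overlap (log2 fold change -0.16, 95% interval -0.44 to 0.12, limma adjusted p = 0.778). The library kit keeps the strand, but whether the counting used it is not given in the sources used here, and without it reads of both genes over the shared bases cannot be told apart.

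**Figure D3:**
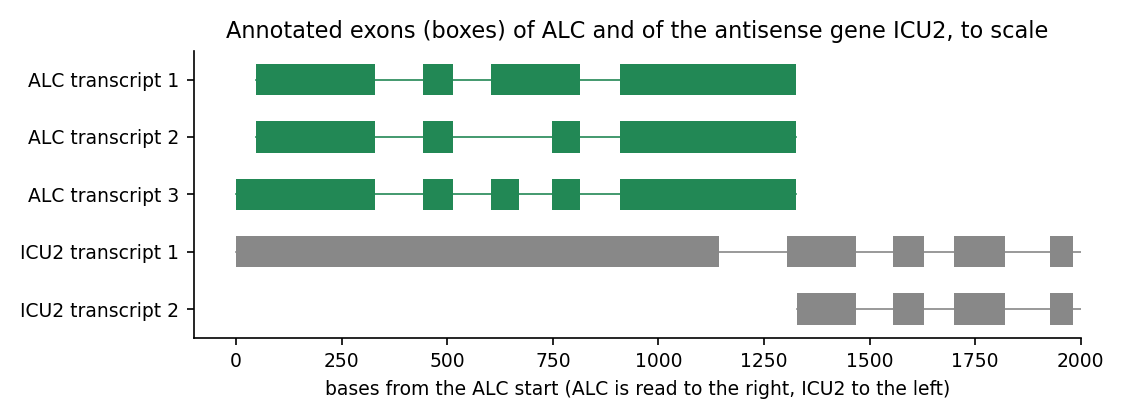
Annotated exons of the 3 *ALC* transcripts (green boxes) and of the *ICU2* transcripts (grey boxes), drawn to scale, with the distance in bases from the *ALC* start on the horizontal axis. Exons of 1 *ICU2* transcript cover 870 of the 1030 exon bases of *ALC*, and 160 lie under no *ICU2* exon.

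Levels of different genes were compared per kb of merged exon, because longer transcripts give more reads. In wild type, *ALC* had 52.8 ± 4.61, *SPT* 13.7 ± 0.358 and *HEC3* 3.71 ± 0.499 CPM per kb (SD, n = 3 each). Each of these 3 was separated from its neighbours in the order in all replicates. Below them *HEC1* had 1.18 ± 0.534, *IND* 1.04 ± 0.243 and *HEC2* 0.789 ± 0.257 CPM per kb (SD, n = 3 each), and these 3 overlapped, so that their order is not resolved. In the mutant the upper order was the same, with 61.9 ± 2.42 for *ALC*, 16.0 ± 0.564 for *SPT* and 5.76 ± 1.23 CPM per kb for *HEC3*.

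**Figure D4:**
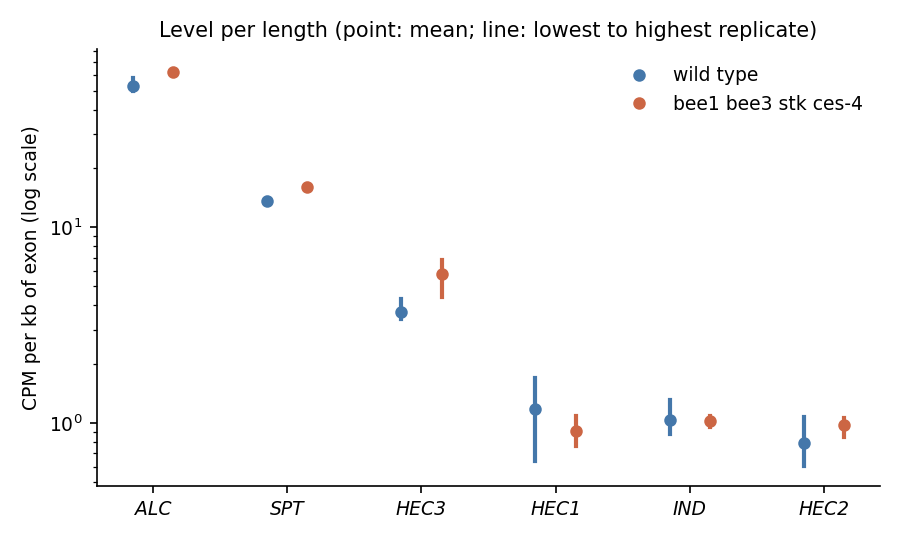
Level of each bHLH gene in CPM per kb of merged exon, on a log axis, in wild type (blue) and *bee1 bee3 stk ces-4* (orange). Points are means of 3 replicates and lines run from the lowest to the highest replicate; *ALC* (52.8 in wild type), *SPT* (13.7) and *HEC3* (3.71) stand in steps above *HEC1*, *IND* and *HEC2*, whose lines overlap.

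Spread and depth differed between the genes. Counting error, averaged over samples, was 20.6% for *HEC1*, 20.8% for *HEC2* and 18.3% for *IND*, and 10.7% for *HEC3*, 4.64% for *SPT* and 2.99% for *ALC*. The coefficient of variation between wild-type replicates was 45.2% for *HEC1*, 32.6% for *HEC2* and 23.3% for *IND*, and 13.4% for *HEC3*, 8.74% for *ALC* and 2.61% for *SPT*. The 3 genes with separated samples were those with the most reads.

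Genes that work with the 6 regulators were read from lists by function. In limma 0 genes of any of these lists were called, against 0.695% of all genes tested. For lists of 8 to 14 tested genes this count is near that share. Valve and margin regulators set where *IND* and *ALC* are active. Among 8 of them, 1 had an unadjusted p under 0.05, against 9.31% of all genes. It was *FRUITFULL* (*FUL*), a MADS-box gene of the valve that restricts *IND*, with 69.3 CPM for wild type and 84.0 in the mutant (log2 fold change 0.28, adjusted p = 0.281). *SHP1* and *SHP2*, the MADS-box genes that activate *IND* and *ALC*, overlapped, with 34.5 against 36.8 and 32.9 against 30.0 CPM. The median log2 fold change of the 8 genes was 0.02.

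Of 14 genes of the medial domain and the style, 2 were higher and 1 was lower at an unadjusted p under 0.05, against 3.83% and 5.48% of all genes, and their median was 0.02. *NO TRANSMITTING TRACT* (*NTT*), a zinc finger gene needed for this tissue, had 14.7, 19.0 and 14.3 CPM for wild type and 13.5, 11.8 and 9.06 CPM in the mutant. The mutant samples of *NTT* were all lower (log2 fold change -0.47, unadjusted p 0.019, limma adjusted p = 0.376). *ETTIN* (*ETT*), an auxin response factor that restricts *SPT* to the carpel margin, had 61.0 against 72.8 CPM (log2 fold change 0.25, limma adjusted p = 0.329). *NGA4*, a B3-domain gene of the style, had 2.20 against 3.30 CPM (log2 fold change 0.50, limma adjusted p = 0.388). The mutant samples of both genes lay above wild type.

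Auxin and cytokinin genes include known targets of SPT, IND and the HEC proteins, such as the auxin exporters and the PID and WAG kinases. Of 12 genes tested, 2 were higher and 1 was lower at an unadjusted p under 0.05, where 9.31% of all genes passed in either direction. Their median log2 fold change was -0.02, and *AHP6*, also on the list, is not among the genes with values. The auxin synthesis gene *YUC4* gave 1.10, 1.54 and 0.807 CPM for wild type and 2.06, 2.24 and 2.27 CPM in the mutant (log2 fold change 0.73, unadjusted p 0.006, limma adjusted p = 0.239). The cytokinin response regulator *ARR5* gave 10.2, 11.8 and 11.3 CPM for wild type and 6.37, 4.31 and 10 CPM in the mutant (log2 fold change -0.72, unadjusted p 0.016, limma adjusted p = 0.354). Neither gene overlapped between the genotypes. The auxin exporter *PIN7* had 71.7 against 83.7 CPM (log2 fold change 0.22, limma adjusted p = 0.473), whereas *PIN3*, *PID*, *WAG1* and *WAG2* overlapped.

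The list of fruit opening and gibberellin genes holds *ADPG1* and *GA3OX1*, which IND regulates, and the DELLA genes, whose proteins bind ALC. *NST3*, also on the list, is not among the genes with values. Of 10 genes tested, 1 had an unadjusted p under 0.05, against 9.31% of all genes. It was the DELLA gene *RGL1*, with 123 against 151 CPM and overlapping samples (log2 fold change 0.28, limma adjusted p = 0.495). *ADPG1*, a polygalacturonase of cell separation, had 16.1 against 19.3 CPM, and *GA3OX1*, a gibberellin synthesis gene, had 1.2 against 0.766 CPM, both with overlap. The median of the 10 genes was 0.19, and their summed level was 389 to 430 CPM for wild type and 453 to 501 CPM in the mutant, mostly from DELLA genes.

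Among 9 bHLH relatives of SPT and ALC, 0 had an unadjusted p under 0.05, against 9.31% of all genes. These were *PIF1*, *PIF3* to *PIF7*, *PIL1*, *HFR1* and *UNE10*, and their median log2 fold change was -0.03. *PIL1* was higher in all mutant samples (4.76 against 5.88 CPM, log2 fold change 0.29, limma unadjusted p 0.087, adjusted p = 0.626). The other relatives overlapped between the genotypes. *PIF3*, the closest to SPT and ALC by sequence, had 15.6 CPM in both genotypes. *AT3G21330*, the closest to the HEC proteins and IND, had 1.05 and 1.09 CPM (log2 fold change 0.07, limma adjusted p = 0.966).

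*HEC1* and *ALC* are 17848 bases apart on chromosome 5. Of 24 tested genes next to the 6 regulators or second from them, 1 was called, against 0.695% of all genes. It was *BXL3*, a beta-xylosidase gene of the cell wall that lies 7767 bases from *HEC3*, and it fell from 173 to 40.8 CPM (log2 fold change -2.08, limma adjusted p = 6.8e-05). *HAM2*, between *BXL3* and *HEC3*, had a log2 fold change of 0.02 and was not called. *AP2*, beside *SPT* and itself a regulator of the valve margin, had 38.5 and 42.0 CPM with overlapping samples.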

How the data were processed

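RNA from 6 inflorescence pools was measured. One protocol label names the allele *ces-2*, the other labels *ces-4*. The authors mapped reads to TAIR10 with Bowtie2, estimated expression with RSEM and tested it with edgeR; tool versions are not given in the sources used here. The deposited values are CPM per gene and sample. The deposited fold changes, p-values and FDRs of their comparison were not used. Of 21801 rows, 2 have no values. Low values spaced by 0.0458 to 0.0617 CPM give the worth of 1 read, and 92.5% to 93.4% of them are whole reads within 0.01 read. No count test was run, because the deposited values are CPM and not the counts themselves. The limit of 3 reads was 0.138 to 0.185 CPM. Intervals from reads cover counting error only.

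Genes above 0.5 CPM in at least 3 samples (21287) were fitted with limma 3.58.1 (R 4.3.3) on log2(CPM + 0.5) with a trend and genotype as the only factor, two-sided, with Benjamini-Hochberg adjustment over these genes and a threshold of 0.05. Fold changes on this scale understate those of low genes. An exact permutation test of 3 against 3 samples cannot go below p = 0.1. Loci and sequences are from RefSeq TAIR10.1; all 6 genes matched by identifier. Some items are not reported here. Named genes were the 6 regulators, the mutated genes, list genes with an unadjusted p under 0.05 or called, called or listed neighbours, the closest bHLH stretches and the gene with the closest profile; other names were added for their role after their values were seen. The 6 genes and the lists were chosen with earlier results of these data known. Alternatives were other pseudocounts, filters and scalings, a replicate block and leaving out each replicate.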

Additional observations from a re-analysis of the deposited data

How the results depend on the processing

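None of the 6 genes was called in any of 13 alternatives. *HEC3* had an unadjusted p under 0.05 in 12 of them, and *SPT* and *ALC* in 7 each; adjusted p-values (limma) ranged from 0.168 to 0.886, 0.455 to 0.841 and 0.281 to 0.892. Leaving out each replicate gave log2 fold changes of -0.50 to 0.02 for *HEC1*, 0.12 to 0.41 for *HEC2*, 0.44 to 0.72 for *HEC3*, 0.19 to 0.24 for *SPT*, -0.08 to 0.14 for *IND* and 0.19 to 0.30 for *ALC*. *HEC1* changed its sign, to 0.02 (adjusted p = 0.995), without wild-type replicate 2. The count of all genes called was 148, and 61 to 159 with a replicate left out: leaving out wild-type replicate 1 gave 61 and replicate 3 gave 83, and leaving out mutant replicates 1 and 2 gave 73 and 76. A replicate block, with the number as a factor beside genotype, gave 64, and the unadjusted p was 0.011 for *HEC3*, 0.061 for *SPT* and 0.057 for *ALC*. Same-numbered samples deviated from their genotype means with r of -0.107, -0.155 and -0.102 over genes, and no sample correlated best with its own number, so the numbers were not taken as pairs. Without a length correction the wild-type mean of *IND* (1.6 CPM) stood above that of *HEC1* (1.49 CPM). Their replicates overlapped, so this order is not resolved either. *HEC1*, *HEC2* and *IND* had between 15 and 44 reads per sample; the part of depth in their spread was not tested.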

Other observations

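Among 20134 genes with at least 1 CPM on average, the profile over the 6 samples closest to that of each gene was found by the root mean square distance of centred log2(CPM + 0.5) values. It was AT2G01470 (*STL2P*) for *SPT*, at a distance of 0.020 where the median gene had 0.178, and AT3G47836 for *ALC*, at 0.019 with a median of 0.194. For *HEC3* it was AT5G59305 at 0.071 (median 0.364), which gave 0.874, 0.986 and 0.915 CPM in wild type and 1.83, 1.96 and 1.16 CPM in the mutant. For *HEC1* it was AT3G51340 at 0.093 (median 0.363), for *HEC2* AT2G31770 (*ARI9*) at 0.040 (median 0.265) and for *IND* AT5G08510 at 0.042 (median 0.202). With 6 samples such a likeness is a description and carries no test. Beside *HEC2*, the next 2 genes on the side of its start, AT3G50340 and AT3G50350, had higher mean levels in the mutant, 18.5 against 22.8 CPM (limma adjusted p = 0.491) and 6.12 against 8.55 CPM (adjusted p = 0.499), and neither was called.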
